A study of Mus musculus with 48 samples.

Results

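Transcripts of GABA and glutamate receptor subunits were measured in frontal cortex and hypothalamus of mice that carried different forms of the clock gene Per3. The 31 genes were taken by name from the families of ionotropic and metabotropic receptors, and every probe whose RefSeq accession belonged to 1 of them was used. Of the 31, 30 had a probe, out of 18883 genes that could be named on the array, and Grin3a was not analysed here. The 30 genes were covered by 52 probes. They comprised 9 GABA-A genes with 13 probes, 2 GABA-B genes with 6 probes, 4 AMPA genes with 9 probes, 5 NMDA genes with 9 probes, 5 kainate genes with 8 probes and 5 metabotropic glutamate receptor genes with 7 probes. Of the 52 probes, 48 were well above background on all 48 arrays, and all 52 entered every comparison.

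The study held 24 adult C57BL/6 mice, 8 of each genotype, and both tissues of each mouse were hybridised, which gave 48 one-colour arrays. The Per3 5/5 mice (labelled Boxhill) and the Per3 4/4 mice (labelled Coach) were homozygous knock-in (KI) lines in which the mouse exon that holds the repeat region was replaced by the human exon with 5 or 4 repeats. WT mice were homozygous for the mouse Per3 gene. All 3 lines were bred from the same conditional animals after a cross to mice with Cre recombinase in every tissue (PGK promoter at the ROSA26 locus), and none still expressed Cre. All 24 mice had been kept awake for 12 h before tissue was taken, a protocol that the labels also call sleep displacement. No undisturbed mice were among them, so every value describes the sleep-deprived (SD) brain.

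GABA is the main inhibitory transmitter of the adult brain and glutamate the main excitatory one. GABA-A receptors are chloride channels built from several subunits, and the subunit mix sets where the channel sits and how it responds to drugs. GABA-B receptors are G protein-coupled and work only when both of their subunits join. AMPA, NMDA and kainate receptors are the cation channels opened by glutamate, whereas metabotropic glutamate receptors signal through G proteins. Cortical neurons are mostly glutamatergic, and the hypothalamus holds many GABAergic and peptide-releasing neurons that take part in the control of sleep and waking.

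A level is given throughout as the log2 signal minus the log2 75th percentile of the same array, so that 0 is the brightness of the 75th percentile spot. Differences are on the log2 scale. Levels of different probes were not compared with each other. A difference was called when its Benjamini-Hochberg adjusted p in limma, taken over all probes tested, was below 0.05. In tissue homogenate, fewer cells of a type and less RNA per cell cannot be told apart.

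Of 10 hypothalamic neuron markers with a probe (Hcrt, Pmch, Avp and others), all 10 were higher in hypothalamus in every genotype. Of 8 markers of cortical projection neurons, 8 were lower in hypothalamus in WT and 7 in each KI line. The 75th percentile signal ran from 307 to 1884 over the 48 arrays, and the 2 dimmest mice were both Per3 4/4. It was higher in WT (mean 1266 ± 180 (SD, n = 8) in cortex) than in Per3 5/5 (908 ± 139) and Per3 4/4 (745 ± 267). The arrays were scanned on 3 days, with no WT array on the first and no Per3 5/5 array on the second. In 1 WT hypothalamus the summed linear level of 4 pituitary markers was 739 against a group median of 3.07, and in 1 Per3 5/5 hypothalamus it was 43.4 against a median of 1.67. Per3 itself, read by 1 probe, was higher than in WT by 0.69 ± 0.14 (SE, adjusted p = 0.00546, limma) in Per3 5/5 cortex and by 0.41 ± 0.14 (adjusted p = 0.0382) in Per3 4/4 cortex. In hypothalamus it was called for Per3 5/5 (0.47, adjusted p = 0.0147) and not for Per3 4/4 (0.17, adjusted p = 0.349). Once scan day was a term of the fit the cortex differences were 0.54 and 0.34, the hypothalamus differences were 0.32 and 0.17, and none was called.

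Receptor transcripts were mostly lower in hypothalamus than in cortex. In WT mice 30 of 52 probes (57.7%) were lower in hypothalamus than in cortex, while 27.7% of all 31228 probes tested were called lower. Only 7 of the 52 (13.5%) were higher, against 31.8% of all probes. In Per3 5/5 mice 28 probes (53.8%) were lower, against 29.1% of all probes, and 11 (21.2%) were higher, against 29.4%. In Per3 4/4 mice 28 probes (53.8%) were lower, against 27.9%, and 9 (17.3%) were higher, against 31.1%. The median difference of the 52 probes was -0.50 in WT, and that of all probes was 0.03. Every hypothalamus array sat at position 1 or 3 of its slide and every cortex array at position 2 or 4, so that tissue and slide position cannot be told apart.

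**Figure D1:**
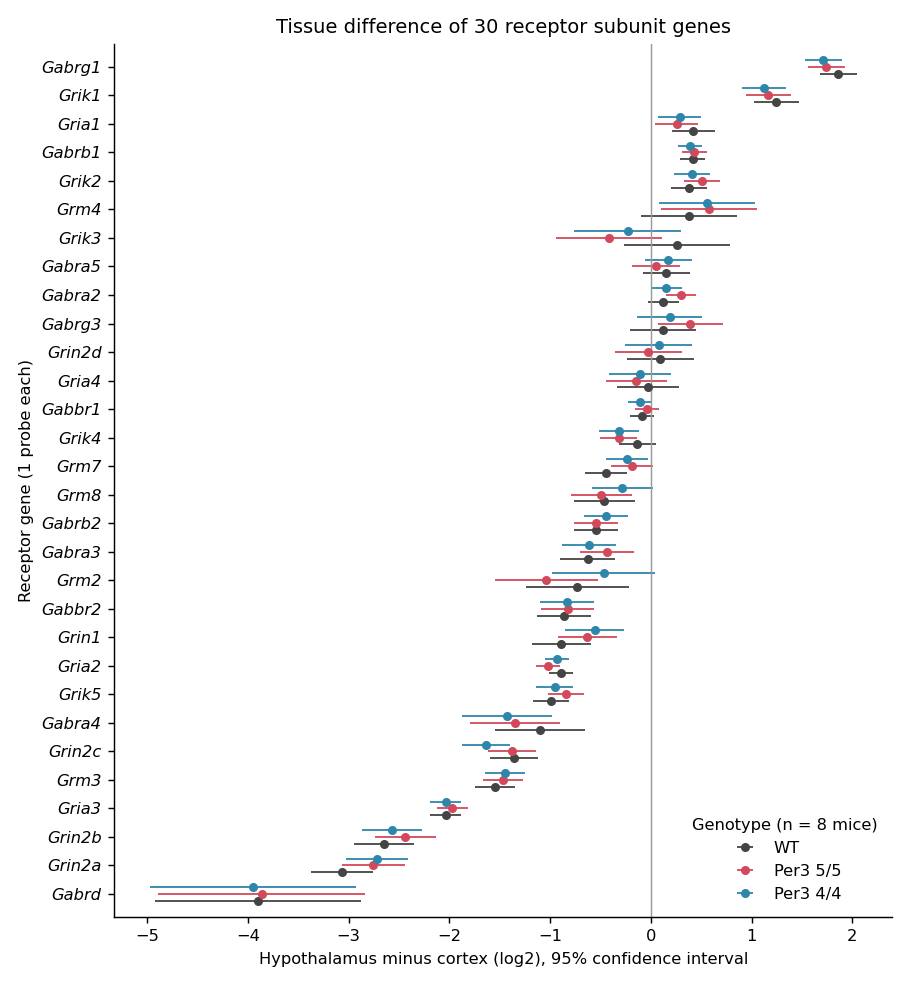
Hypothalamus minus cortex difference (log2, x axis) of the 30 receptor genes, 1 probe each, in WT mice and the 2 KI lines. Points are limma estimates within mice (n = 8 a genotype) and lines are 95% confidence intervals. In WT the genes ran from Gabrd at -3.90 to Gabrg1 at 1.86, and for Gabrd the KI lines were at -3.86 and -3.95.

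Among GABA-A subunits, Gabrd encodes the delta subunit of channels that lie outside synapses and carry tonic inhibition. Its level in WT cortex ran from 3.53 to 3.98 with a median of 3.74. In WT hypothalamus it ran from -2.32 to 2.09 with a median of -0.32. All 8 WT mice were lower in hypothalamus and the tissues did not overlap, yet the hypothalamus values spread over more than 4 log2 units where the cortex values spread over less than 1. The difference in WT was -3.90 ± 0.50 (SE, adjusted p = 2.77e-07, limma), a 14.9-fold lower level. It was -3.86 in Per3 5/5 and -3.95 in Per3 4/4.

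Gabrg1 encodes a gamma subunit that is scarce in most of the forebrain. It was the receptor gene with the largest rise in hypothalamus among the 30. Its WT levels ran from 0.36 to 1.09 (median 0.70) in cortex and from 2.12 to 3.28 (median 2.58) in hypothalamus. The tissues did not overlap in any genotype. The difference was 1.86 ± 0.09 (3.63-fold, adjusted p = 7.67e-15) in WT, 1.74 in Per3 5/5 and 1.71 in Per3 4/4.

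Gabrb1, a beta subunit, was also higher in hypothalamus. It ran from 2.10 to 2.44 (median 2.25) in WT cortex and from 2.48 to 2.89 (median 2.64) in WT hypothalamus, with no overlap. The difference was 0.42 ± 0.06 (adjusted p = 1.44e-06). Of the other GABA-A genes, Gabra3 and Gabrb2 were lower in hypothalamus on every probe (2 and 3 probes) in every genotype. The differences of Gabra5, Gabra2 and Gabrg3 were not called in WT, and the last 2 were called higher in Per3 5/5 (0.30 and 0.39).

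Both GABA-B genes were lower in hypothalamus on all 6 probes in sign, and 4 of the 6 were called in each genotype. Gabbr2, the subunit that couples to the G protein, fell on each of its 3 probes, by 0.86 to 1.29 in WT. Gabbr1, the subunit that binds GABA, was called on 1 of its 3 probes, with a difference of -0.28 ± 0.05 in WT.

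AMPA subunits were split. Gria3 levels ran from 1.92 to 2.57 (median 2.37) in WT cortex and from -0.04 to 0.48 (median 0.33) in WT hypothalamus on its brighter probe. The tissues did not overlap and the difference was -2.03 ± 0.08 (4.10-fold lower, adjusted p = 5.85e-17), with -1.82 on the second probe. Gria2, the subunit that makes AMPA channels impermeable to calcium, was lower on both probes, by 0.89 and 0.72. Gria1 rose on 1 probe, from a median of 4.51 (4.34 to 4.57) in WT cortex to 4.86 (4.33 to 5.67) in WT hypothalamus. These ranges overlapped, 7 of 8 WT mice were higher in hypothalamus, and the difference was 0.42 ± 0.10 (adjusted p = 0.00123). On the other Gria1 probe the WT difference was 0.00 ± 0.10 (adjusted p = 0.984). None of the 3 Gria4 probes was called in WT.

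NMDA receptors were lower in hypothalamus almost throughout. Of 9 probes, 8 were lower in hypothalamus in every genotype, and the median WT difference was -1.90. Grin2a, a regulatory subunit that rises as the forebrain matures, ran from -0.67 to 0.23 (median -0.07) in WT cortex and from -3.71 to -2.61 (median -3.17) in WT hypothalamus. The tissues did not overlap, and the difference was -3.07 ± 0.15 (8.37-fold lower, adjusted p = 1.01e-14). It was -2.75 in Per3 5/5 and -2.72 in Per3 4/4.

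Grin2b, the regulatory subunit that dominates early in life, was read by 5 probes. All 5 fell, and 4 of them by 1.90 or more in WT. On the probe with the largest fall, WT levels ran from 1.98 to 2.68 (median 2.46) in cortex and from -0.61 to 0.35 (median -0.35) in hypothalamus, without overlap. The difference was -2.65 ± 0.14 (adjusted p = 8.44e-14).

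Grin2c, a subunit known best from cerebellum, thalamus and astrocytes, ran from 1.65 to 2.23 (median 2.02) in WT cortex and from 0.13 to 1.21 (median 0.54) in WT hypothalamus. It fell by 1.36 (SE 0.12, adjusted p = 3.05e-10) with no overlap. Grin1, the subunit that every NMDA receptor needs, fell by 0.89 in WT. The single exception was Grin2d, whose WT difference was 0.09 (95% confidence interval of -0.24 to 0.42).

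Kainate receptors went the other way in part. Grik1 levels ran from -2.03 to -1.61 (median -1.91) in WT cortex and from -1.04 to 0.28 (median -0.73) in WT hypothalamus. There was no overlap, and the rise was 1.25 ± 0.11 (2.37-fold, adjusted p = 3.14e-10), with 1.24 on the second probe. Grik2 rose on both probes in WT (on A_52_P655120 the rise of 0.31 in Per3 4/4 was -0.03 under normexp background correction), and on the brighter its level was -2.38 to -1.996 (median -2.16) in cortex and -2.19 to -1.53 (median -1.77) in hypothalamus. Those ranges overlapped and the difference was 0.38 ± 0.09 (adjusted p = 0.000596). Grik5, which joins other kainate subunits, fell by 0.99 in WT.

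Among metabotropic receptors, Grm3 is shared by neurons and astrocytes. It ran from 1.60 to 2.08 (median 1.79) in WT cortex and from -0.02 to 0.65 (median 0.26) in WT hypothalamus. The tissues did not overlap and the difference was -1.55 ± 0.09 (adjusted p = 6.71e-13). Grm4 was dim, and its WT levels ran from -5.81 to -4.04 (median -4.89) in cortex and from -5.52 to -3.79 (median -4.52) in hypothalamus. The WT difference of 0.37 ± 0.23 did not pass (adjusted p = 0.168). Grm2, Grm8 and 2 of the 3 Grm7 probes were lower in hypothalamus in WT.

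**Figure D2:**
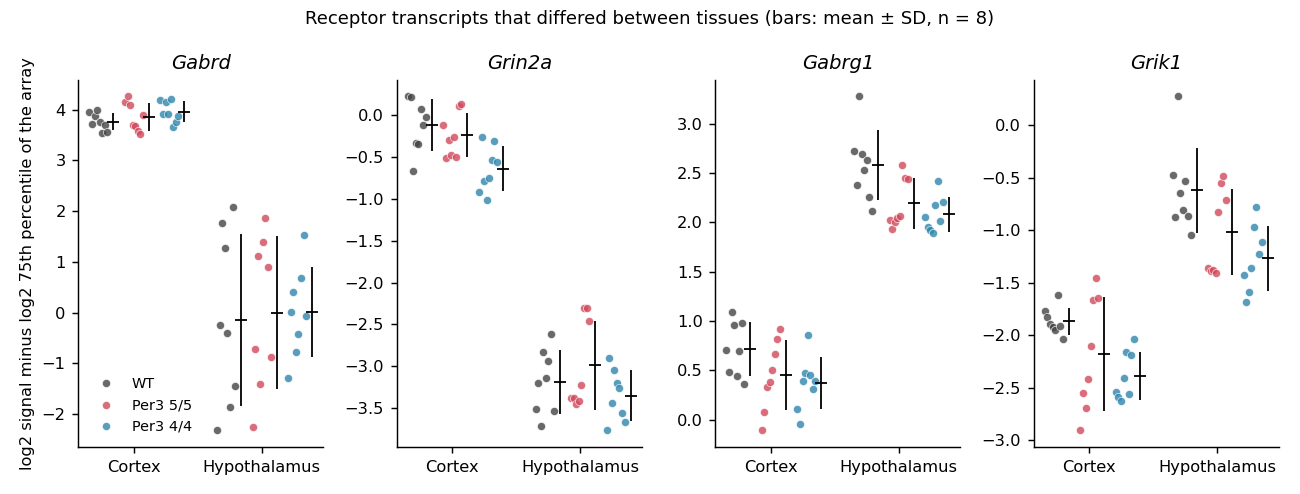
Level (log2 signal minus log2 75th percentile, y axis) of Gabrd, Grin2a, Gabrg1 and Grik1 in every sample, by tissue and genotype. Points are arrays and bars are mean ± SD of 8 arrays. Within a genotype, cortex and hypothalamus did not overlap for any of the 4, and Gabrd spread from -2.32 to 2.09 in WT hypothalamus.

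No receptor probe was called for a tissue difference that varied with genotype. The test of the difference between tissue effects called 0 of 52 probes for Per3 5/5 against WT, where 0.00961% of all probes were called. It called 0 of 52 for Per3 4/4 against WT (0.0032% of all probes) and 0 of 52 for Per3 5/5 against Per3 4/4 (0% of all probes). At an unadjusted p below 0.05 the 3 counts were also 0, against 6.22%, 5% and 3.83% of all probes. These intervals were wide for Gabrd, whose tissue difference in Per3 5/5 minus that in WT was 0.04 with a 95% interval of -1.41 to 1.49.

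The surrounding pathway genes were read from lists of other proteins. In WT, 27.7% of all probes were called lower and 31.8% higher in hypothalamus. Of 19 glutamate receptor auxiliary and anchoring genes, 16 were lower and 2 higher in WT hypothalamus. Cacng3, an AMPA receptor auxiliary subunit, was lower by 2.73, and Dlg4, the scaffold of excitatory synapses, by 1.09. Of 8 genes for GABA synthesis, packaging, uptake and breakdown, 7 were higher and 0 lower. Slc6a11, a GABA transporter of astrocytes, was higher by 2.58 and Slc32a1, which loads GABA into vesicles, by 0.81. Of 11 genes for glutamate packaging, uptake and metabolism, 4 were higher and 5 lower. Of 12 GABA receptor auxiliary and anchoring genes and chloride transporters, 4 were higher and 6 lower, and of 13 other receptor subunits tested, 5 were higher and 4 lower.

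The wide spread of Gabrd in hypothalamus moved with markers of thalamus, the structure that borders the hypothalamus. Of 5 thalamus markers (Tcf7l2, Lef1, Prkcd, Zic1 and Slitrk6), 4 were higher in hypothalamus than in cortex in every genotype. Their summed linear level per hypothalamus array ran from 14.7 to 36.2 in WT, between 10.8 and 34.8 in Per3 5/5 and between 10.8 and 24.2 in Per3 4/4. Over the 24 hypothalamus arrays, 1 from each mouse, the log2 of that sum was set against each of the 52 probes. Of these 52 relations, 15 passed a permutation test on Pearson's r after Benjamini-Hochberg adjustment, 10 of them positive. The permutations ran across genotypes and scan days, so the p-values also take in differences between those groups. The negative ones were Gabbr1 A_52_P592639 (r = -0.631), Grin1 (-0.604), Gabra5 A_51_P151316 (-0.565), Gria1 A_51_P498031 (-0.561) and Grm2 (-0.535). Within the WT arrays alone r for these was 0.02, -0.43, -0.29, -0.42 and 0.01 in the same order.

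Gabra4, the alpha subunit that pairs with delta in thalamic relay neurons and in some forebrain cells, followed the markers most closely. It was picked out after its values were seen. Its levels in hypothalamus ran from 1.99 to 3.99 in WT, between 1.63 and 3.54 in Per3 5/5 and between 1.39 and 2.62 in Per3 4/4. Pearson's r was 0.952 (permutation p = 1e-05, the smallest that 100000 permutations can give, and adjusted p = 0.00026). Spearman's rho was 0.952 with the same p and adjusted p. Without the 2 arrays farthest from the median, r was 0.940. Within the 8 arrays of each scan day r was 0.799, 0.945 and 0.948.

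Gabrd gave r = 0.797 (permutation p = 1e-05, adjusted p = 0.00026) and rho = 0.719 (permutation p = 0.00014, adjusted p = 0.00146). It was 0.731 without the 2 farthest arrays and 0.652, 0.856 and 0.938 within the scan days. The 3 hypothalamus samples with the highest marker sums, WT replicates 3 and 7 and Per3 5/5 replicate 6, had the 3 highest Gabrd levels, at 1.77, 2.09 and 1.87.

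Of the other 8 positive relations, 7 had r below 0 within at least 1 scan day, and that of Grm3 was above 0 on each (0.199, 0.342 and 0.453). For 1 Gabrb2 probe (A_52_P91563) r was 0.771 in all arrays but -0.0181, 0.645 and 0.644 within days, and for Grik1 it was 0.686 but -0.379, 0.531 and 0.336. For 1 Gabbr2 probe (A_52_P612928) r was 0.575 in all arrays and 0.849, -0.241 and 0.713 within days. For Grin2c r was 0.409 (permutation p adjusted to 0.122). The part that thalamic tissue had in the hypothalamus values of Gabrd and Gabra4 was not tested beyond this relation. Both genes were still lower in hypothalamus than in cortex in every genotype, by 3.86 to 3.95 for Gabrd and by up to 1.43 for Gabra4.

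**Figure D3:**
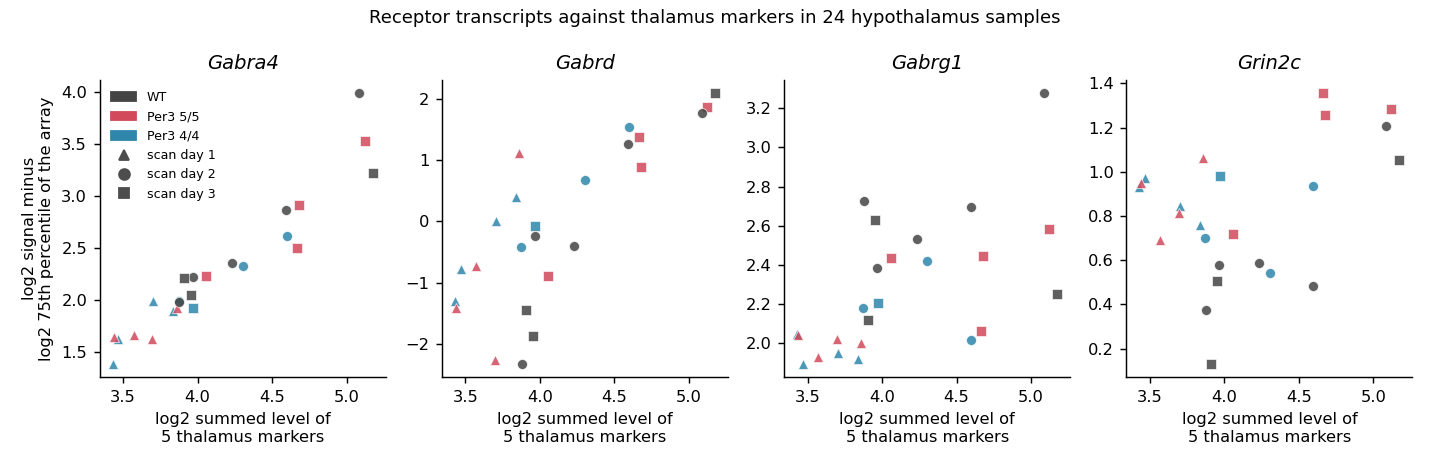
Level (log2 signal minus log2 75th percentile, y axis) of Gabra4, Gabrd, Gabrg1 and Grin2c in the 24 hypothalamus samples against the log2 summed level of 5 thalamus markers (x axis). Colours mark genotype and symbols scan day. Gabra4 (r = 0.952) and Gabrd (r = 0.797) rose with the markers. The relation of Grin2c (r = 0.409) did not pass (permutation p adjusted to 0.122).

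The genotype comparisons asked whether the Per3 repeat forms changed receptor transcripts within a tissue. In cortex, 10 of 52 probes (19.2%) were higher in Per3 5/5 than in WT, against 8.44% of all 29715 probes tested, and 0 were lower, against 3.91%. In Per3 4/4 cortex 8 (15.4%) were higher and 4 (7.69%) lower, against 13.4% and 9.14% of all probes. In hypothalamus, 10 probes (19.2%) were higher and 2 (3.85%) lower in Per3 5/5, against 10.3% and 8.55%. In Per3 4/4 hypothalamus 7 (13.5%) were higher and 2 (3.85%) lower, against 8.24% and 6.81%. The counts for Per3 4/4 in cortex were thus close to the share of all probes. The WT arrays are common to both KI comparisons of a tissue, so the lists of Per3 5/5 and Per3 4/4 are not independent.

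Most of these calls did not hold once scan day was a term of the fit. Per3 5/5 and WT shared only scan day 3 (4 and 3 mice). Per3 4/4 and WT shared day 2 (3 and 5 mice) and day 3 (1 and 3 mice). Genotype and scan day thus cannot be fully told apart. When the day was added as a block, 0 of 52 probes were called for Per3 5/5 cortex (0.986% of all probes), 4 for Per3 4/4 cortex (7.72%), 0 for Per3 5/5 hypothalamus (2.1%) and 0 for Per3 4/4 hypothalamus (0.745%). At an unadjusted p below 0.05 these counts were 13, 11, 14 and 8 (25%, 21.2%, 26.9% and 15.4%), against 22.6%, 25.3%, 22.2% and 19.4% of all probes. Within the arrays of a single scan day, where 3 or 4 mice of a KI line met 5 or 3 WT mice, 0 probes were called in each of the 4 comparisons, against 0.00337%, 0.552%, 0.00325% and 0.0163% of all probes in the same order. At an unadjusted p below 0.05 there were 7, 11, 11 and 3 (13.5%, 21.2%, 21.2% and 5.77%), against 17.3%, 22.8%, 17.8% and 8.94% of all probes. Centring each array on its median in place of its 75th percentile left 4, 13, 7 and 4 calls, and it moved the share of higher calls over all probes from 68.4% to 19.2% for Per3 5/5 cortex and, for Per3 4/4 cortex, from 59.4% to 34.2%. In hypothalamus that share went from 54.6% to 34.5% for Per3 5/5 and from 54.8% to 31.8% for Per3 4/4. No receptor probe called against WT changed sign under median centring, quantile normalization or normexp background correction.

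**Figure D4:**
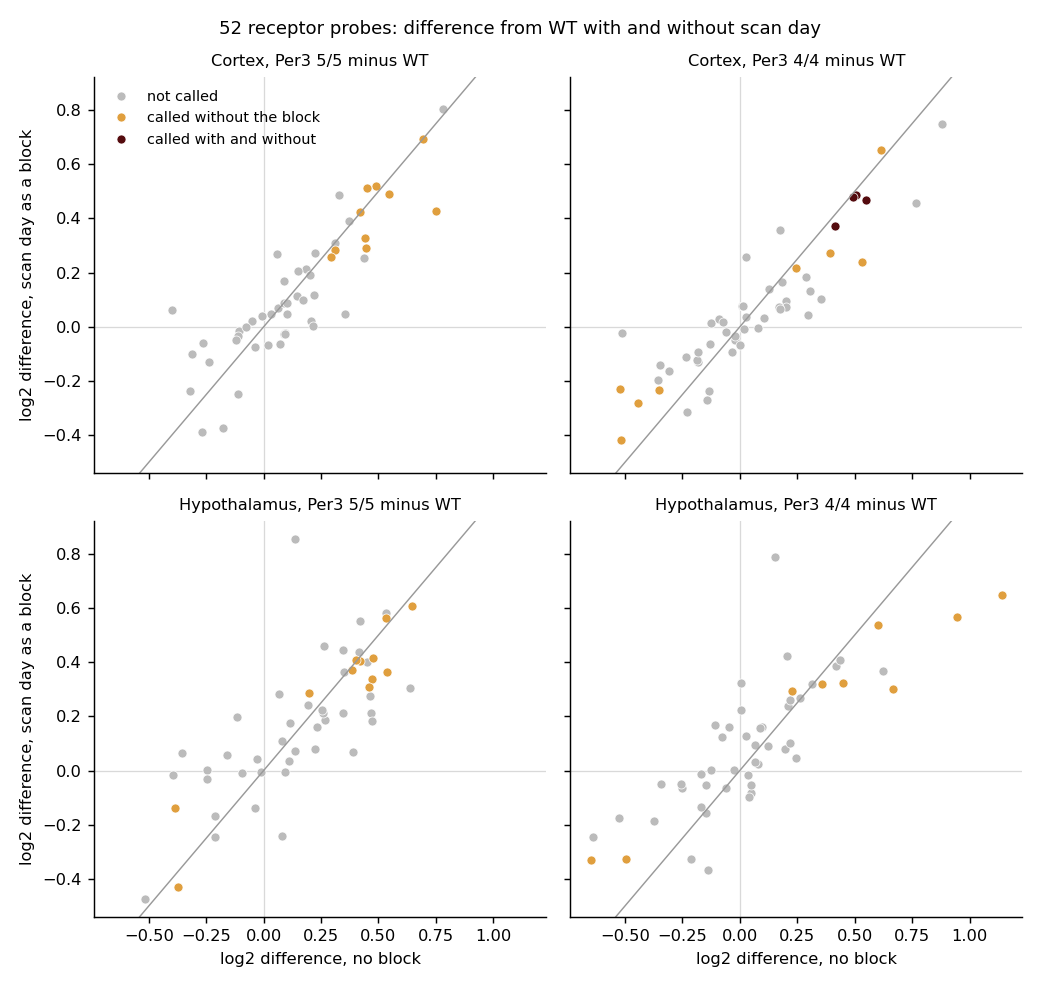
Difference from WT (log2) of the 52 receptor probes without a block (x axis) and with scan day as a block (y axis) in the 4 comparisons, with the line of equality. Dark points, 4 in Per3 4/4 cortex and 0 in the other panels, were called both ways.

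GABA-B probes lay above WT in sign throughout. All 6 probes, of Gabbr1 and Gabbr2, did so in each of the 4 comparisons. The share of all probes above WT was 58.7% in Per3 5/5 and 52.4% in Per3 4/4 cortex. In hypothalamus it was 53.9% in Per3 5/5 and 52.2% in Per3 4/4. The smallest Gabbr2 difference was 0.003, in Per3 4/4 hypothalamus. Called higher were 3 probes in Per3 5/5 cortex, 4 in Per3 4/4 cortex, 4 in Per3 5/5 hypothalamus and 3 in Per3 4/4 hypothalamus. Of all probes, 8.44%, 13.4%, 10.3% and 8.24% were called higher in the same order. With scan day as a block only a Gabbr1 call held, in Per3 4/4 cortex.

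For Gabbr1 the most significant probe ran from 1.57 to 1.79 (median 1.66) in WT cortex, from 1.75 to 2.20 (median 2.05) in Per3 5/5 cortex and from 1.89 to 2.30 (median 2.03) in Per3 4/4 cortex. The Per3 4/4 arrays lay wholly above WT and the Per3 5/5 arrays overlapped them slightly. The difference was 0.42 ± 0.07 in Per3 4/4 (1.33-fold, adjusted p = 0.00142) and 0.31 ± 0.07 in Per3 5/5 (1.24-fold, adjusted p = 0.0120). Once scan day was in the fit, the adjusted p came to 0.0130 and 0.0845.

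In hypothalamus the same Gabbr1 probe ran from 1.05 to 1.54 (median 1.42) in WT, from 1.43 to 2.001 (median 1.80) in Per3 5/5 and from 1.41 to 1.95 (median 1.79) in Per3 4/4. Both KI groups overlapped the upper WT arrays. The differences were 0.38 ± 0.09 (adjusted p = 0.00803) and 0.36 ± 0.09 (adjusted p = 0.0177), and the block took the adjusted p to 0.0747 and 0.115. The other 2 Gabbr1 probes gave differences of 0.14 to 0.67 over the 4 comparisons, of which 5 of 8 were called.

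Gabbr2 was read by 3 probes. On the 1 with the lowest adjusted p, cortex levels ran from -1.05 to -0.36 (median -0.59) in WT, from -0.48 to 0.02 (median -0.19) in Per3 5/5 and from -0.55 to -0.04 (median -0.21) in Per3 4/4. Each KI group overlapped WT in part. The differences were 0.45 ± 0.10 (adjusted p = 0.00892) and 0.39 ± 0.10 (adjusted p = 0.00830). They were 0.29 and 0.27 with the block, and neither was then called.

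In hypothalamus that Gabbr2 probe had medians of -1.70 (-2.06 to -1.10) in WT, -1.25 (-1.34 to -0.89) in Per3 5/5 and -1.37 (-1.85 to -1.16) in Per3 4/4. The difference was called for Per3 5/5 (0.48 ± 0.12, adjusted p = 0.00847) and not for Per3 4/4 (0.26 ± 0.12, adjusted p = 0.119).

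NMDA subunits held the remaining calls that passed with the block. All 4 calls that passed with the block, the Gabbr1 call above included, were in Per3 4/4 cortex. Their share of the 52 probes was close to that of all probes (7.72%). On 1 Grin2b probe (A_52_P248920) cortex levels ran from -3.17 to -2.34 (median -2.58) in WT, from -2.64 to -1.83 (median -1.96) in Per3 5/5 and from -2.29 to -1.83 (median -2.07) in Per3 4/4. The Per3 4/4 arrays did not overlap WT. The differences were 0.55 ± 0.12 in both, with adjusted p = 0.00321 for Per3 4/4 and 0.00730 for Per3 5/5, and 0.0299 and 0.0708 with the block.

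A second Grin2b probe (A_51_P265765) ran from -1.53 to -0.84 (median -1.02) in WT cortex, from -1.07 to -0.33 (median -0.46) in Per3 5/5 and from -0.85 to -0.24 (median -0.56) in Per3 4/4. It was called in both lines (0.49 and 0.51), in Per3 4/4 also with the block (adjusted p = 0.0325), and in Per3 5/5 hypothalamus (0.54, adjusted p = 0.0497). The other 3 Grin2b probes were not called in cortex, with differences of -0.13 to 0.33. Among them was the probe with the largest tissue difference (0.20 in Per3 5/5 and -0.13 in Per3 4/4), so that the probes of this gene disagreed.

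Grin2c in cortex had medians of 2.02 (1.65 to 2.23) in WT, 2.37 (2.08 to 2.81) in Per3 5/5 and 2.42 (2.04 to 2.99) in Per3 4/4, with overlap in each case. It was higher by 0.49 ± 0.13 in Per3 4/4 (1.41-fold, adjusted p = 0.00891) and by 0.42 ± 0.13 in Per3 5/5 (1.34-fold, adjusted p = 0.0327). With the block the adjusted p was 0.0455 and 0.129. In hypothalamus Grin2c was called for Per3 5/5 (0.40 ± 0.13, adjusted p = 0.0384). Grin2a was lower in Per3 4/4 cortex by 0.52 (adjusted p = 0.0114) and not in the other 3 comparisons, and the block took its adjusted p to 0.0890.

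**Figure D5:**
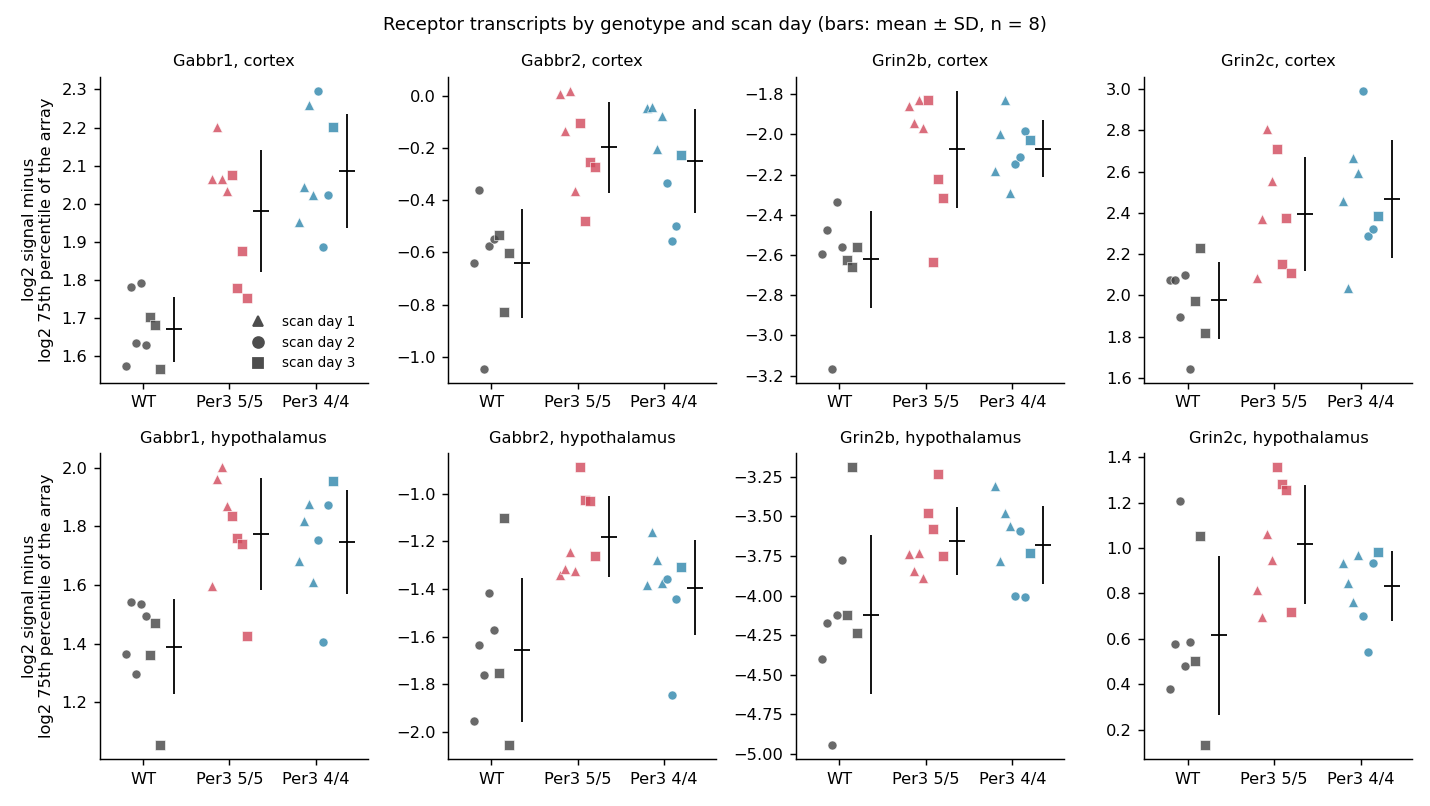
Level (log2 signal minus log2 75th percentile, y axis) of Gabbr1, Gabbr2, Grin2b (A_52_P248920) and Grin2c in cortex (upper row) and hypothalamus (lower row) by genotype. Points are arrays, symbols mark the 3 scan days and bars are mean ± SD of 8 arrays. No WT point is from scan day 1, and in cortex Gabbr1 and Grin2b of Per3 4/4 lie wholly above WT.

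The starts of Gabbr1, Gabbr2, Grin2c and Grin1 are shown. The first 3 were higher in both KI lines in cortex, and Grin1 was the member whose promoter held an E-box. The stretches shown are the 250 bases before the RefSeq start, 5′ to 3′ on the gene's strand, from build GRCm38.p6. Capitals mark a GC box (GGGCGG, or CCGCCC on the other strand), which binds Sp1-type factors, and in Grin1 the E-box CACGTG, which binds CLOCK and BMAL1. Gabbr1 lies at chr17:37045716-37045965, plus strand. Gabbr2 lies at chr4:46991715-46991964, minus strand. Grin2c lies at chr11:115267244-115267493, minus strand. Grin1 lies at chr2:25319188-25319437, minus strand.
Gabbr1: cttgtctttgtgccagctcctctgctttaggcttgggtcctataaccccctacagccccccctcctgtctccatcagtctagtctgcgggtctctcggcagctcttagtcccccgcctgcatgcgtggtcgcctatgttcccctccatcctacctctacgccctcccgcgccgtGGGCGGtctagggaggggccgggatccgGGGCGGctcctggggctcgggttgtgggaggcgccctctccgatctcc
Gabbr2: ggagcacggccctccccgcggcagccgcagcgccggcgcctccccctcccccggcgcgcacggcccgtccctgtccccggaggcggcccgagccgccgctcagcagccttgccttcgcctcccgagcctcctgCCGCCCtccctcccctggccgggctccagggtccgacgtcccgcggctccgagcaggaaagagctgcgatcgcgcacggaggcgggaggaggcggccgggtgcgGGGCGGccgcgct
Grin2c: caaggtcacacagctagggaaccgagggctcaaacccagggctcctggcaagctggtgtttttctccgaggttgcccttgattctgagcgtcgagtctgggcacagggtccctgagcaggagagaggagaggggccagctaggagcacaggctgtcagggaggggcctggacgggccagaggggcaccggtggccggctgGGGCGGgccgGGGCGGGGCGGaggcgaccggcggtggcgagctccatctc
Grin1: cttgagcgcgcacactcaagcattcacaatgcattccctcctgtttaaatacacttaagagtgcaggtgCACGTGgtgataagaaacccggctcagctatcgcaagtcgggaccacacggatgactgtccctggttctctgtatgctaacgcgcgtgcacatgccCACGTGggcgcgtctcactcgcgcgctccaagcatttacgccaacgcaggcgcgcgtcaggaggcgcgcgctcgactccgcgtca

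A RefSeq promoter was found for 23 of the 31 genes. The E-box was in 1 of the 23 (4.35%), with 2 copies in Grin1, and in 6.02% of all 32851 promoters. The cAMP response element TGACGTCA, which like the E-box reads the same on both strands, was in 0 of 23 and in 1.55% of all. A GC box was in 12 of 23 (52.2%) and in 32.7% of all, with 2 in Gabbr1, 2 in Gabbr2 and 3 in Grin2c. In Grin2c 2 of the 3 overlap by 1 base. These matches are descriptions of the letters in this window.

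Grin1 itself was above WT in each comparison, by 0.21 and 0.29 in cortex and by 0.47 and 0.62 in hypothalamus (Per3 5/5 first), and was not called in any of the 4.

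Among GABA-A genes few probes were called. Gabrg1 in hypothalamus had medians of 2.58 (2.12 to 3.28) in WT, 2.05 (1.93 to 2.58) in Per3 5/5 and 2.03 (1.90 to 2.42) in Per3 4/4, and all ranges overlapped. It was lower by 0.39 in Per3 5/5 (adjusted p = 0.0478) and by 0.50 in Per3 4/4 (adjusted p = 0.0208). With the block these were -0.14 and -0.32, neither called, and within 1 scan day the Per3 5/5 difference was 0.05. Gabrg1 also rose with the thalamus markers over all 24 arrays (r = 0.577, permutation p adjusted to 0.0154), though r was -0.209, 0.521 and 0.0864 within days. The remaining calls were 1 of 2 Gabra5 probes, lower in Per3 5/5 hypothalamus (-0.37), and 1 of 3 Gabrb2 probes, lower in Per3 4/4 cortex (-0.35). Gabrd was not called in any genotype comparison, and in hypothalamus its standard error of 0.66 left a 95% interval of -1.23 to 1.504 for Per3 5/5 against WT. Besides Gabrg1, other probes called against WT in hypothalamus were related to the thalamus markers. These were Grik1 A_51_P282609 (r = 0.686), Gria1 A_51_P498031 (-0.561), Gabbr1 A_52_P592639 (-0.631) and Grm2 (-0.535). Within scan days r for Gria1 was 0.826, -0.688 and 0.121, while that of Gabbr1 and Grm2 stayed negative. The part of thalamic tissue in these genotype differences was not tested.

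AMPA genes gave 3 calls. Gria1 on the probe A_51_P498031 had hypothalamus medians of 3.12 (2.21 to 3.19) in WT, 3.40 (3.28 to 3.67) in Per3 5/5 and 3.46 (3.15 to 3.61) in Per3 4/4. The Per3 5/5 arrays lay wholly above WT. It was higher by 0.46 ± 0.12 in Per3 5/5 (adjusted p = 0.0105) and by 0.45 ± 0.12 in Per3 4/4 (adjusted p = 0.0176), and with the block by 0.31 and 0.32, neither called. The other Gria1 probe had the opposite sign in all 4 comparisons (-0.08 to -0.37) and was not called. The last AMPA call was 1 of 2 Gria2 probes, lower in Per3 4/4 cortex (-0.44).

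Of the kainate probes, Grik1 A_51_P282609 was lower in Per3 4/4, with cortex medians of -1.91 (-2.03 to -1.61) in WT and -2.48 (-2.63 to -2.04) in Per3 4/4 that did not overlap. The difference was -0.52 ± 0.17 (adjusted p = 0.0299) in cortex and -0.65 ± 0.18 (adjusted p = 0.0234) in hypothalamus. It was -0.23 and -0.33 with the block, and the second Grik1 probe gave -0.13 and -0.06. Of the others, 1 Grik2 probe was higher in Per3 5/5 in both tissues (0.29 and 0.42), 1 of 2 Grik3 probes was higher in Per3 5/5 cortex (0.75) and the other in both KI hypothalami (0.53 and 0.60). Metabotropic calls were all higher. They were 1 Grm7 probe in both KI cortices (0.69 and 0.61), another in Per3 5/5 cortex and hypothalamus (0.45 and 0.65), and Grm2 (1.14) and Grm4 (0.95) in Per3 4/4 hypothalamus. The Grm2 arrays of Per3 4/4 lay wholly above WT, though this probe was not well above background on every array. Grm4 had medians of -4.52 in WT and -3.59 in Per3 4/4 and was among the dim probes. So were the called Grik3 probes, with WT levels of -6.62 to -5.50 in cortex and of -6.92 to -5.73 in hypothalamus. The Grm7 probe called in both KI cortices was dim too, from -6.50 to -5.05 in WT cortex.

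No receptor probe was called between the KI lines. The paper reported differentially expressed transcripts between them in both tissues, by criteria that included rank products, which were not run here. Per3 5/5 against Per3 4/4 gave 0 of 52 calls in cortex and 0 in hypothalamus, and 0% of all probes were called in either tissue. At an unadjusted p below 0.05, 9 probes (17.3%) differed in cortex and 6 (11.5%) in hypothalamus, against 15.7% and 16.2% of all probes. The methods' t-test also called 0 after adjustment, with 7 and 5 probes before it (13.5% and 9.62%, against 10.4% and 13.3% of all probes). The differences of Gabbr1 (the probe above) were -0.10 in cortex (95% confidence interval of -0.26 to 0.05) and 0.03 in hypothalamus (-0.17 to 0.22). For Grin2a in cortex the difference was 0.40 (0.11 to 0.69, adjusted p = 0.285).

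In hypothalamus, markers of other cells also differed by genotype in the fit without scan day. Of 5 oligodendrocyte markers (Mbp, Mog, Mag, Mobp and Cnp), 5 were higher in Per3 4/4 and 3 in Per3 5/5 than in WT. The shares of all probes called higher were 8.24% and 10.3%. Their summed linear level ran from 104 to 146 in WT, between 132 and 176 in Per3 5/5 and between 144 and 219 in Per3 4/4. None of the 5 was called in either KI cortex. Of 5 astrocyte markers, 2 were higher and 1 lower in Per3 5/5 hypothalamus, and 1 was higher in Per3 4/4 hypothalamus. In Per3 5/5 hypothalamus 10.3% of all probes were called higher and 8.55% lower, and in Per3 4/4 8.24% were called higher. The summed linear level of the astrocyte markers was 15.3 to 24.2 (median 19.8) in WT. It was 20.4 to 29.3 (median 24.9) in Per3 5/5 and 20.1 to 29.7 (median 24.8) in Per3 4/4. The part of both cell types in the receptor differences of hypothalamus was not tested. Without the 2 mice that had pituitary transcripts the calls in hypothalamus went from 12 to 6 for Per3 5/5 and from 9 to 5 for Per3 4/4, and in cortex they were 9 and 14.

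Of the 19 glutamate receptor auxiliary and anchoring genes, 3 were higher and 0 lower in Per3 5/5 cortex and 6 and 2 in Per3 4/4 cortex. In hypothalamus they were 6 and 1 in Per3 5/5 and 5 and 2 in Per3 4/4. Of all probes, 8.44%, 13.4%, 10.3% and 8.24% were called higher and 3.91%, 9.14%, 8.55% and 6.81% lower in these comparisons. With the block 4 were called in Per3 4/4 cortex (7.72% of all probes) and 0 in the other 3 comparisons. At an unadjusted p below 0.05 these 3 had 6, 5 and 7, in the same order. The shares of all probes at that threshold with the block are given above. In Per3 4/4 cortex Dlg4 was higher by 0.70 (adjusted p = 0.0227 with the block) and Neto1, a kainate receptor partner, lower by 0.44 (adjusted p = 0.0160 with the block). The 8 genes for GABA synthesis, packaging, uptake and breakdown had 1 higher and 3 lower in Per3 4/4 cortex, of which 0 were called with the block (4 at an unadjusted p below 0.05), and 0 in the other 3 comparisons. Genes for glutamate packaging, uptake and metabolism had at most 1 call of 11 in a comparison, the other receptor subunits at most 2 and the GABA receptor auxiliary list at most 3 of 12.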

How the data were processed

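RNA of frontal cortex and hypothalamus was labelled with Cy3 and hybridised to Agilent 4x44K mouse arrays, 4 arrays to a slide. The deposited scanner files hold spot intensity, and per the file headers they come from Agilent Feature Extraction 10.7.1.1 with its background subtraction already applied to the processed signal. The authors then applied a 75th percentile shift in GeneSpring and tested genotypes by ANOVA, a t-test and rank products (rank products were not run here). The deposited series table holds log2 values made by the authors, and it served as an alternative.

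Here the processed signal of each spot was divided by the 75th percentile of the array's non-control spots and taken to log2. Outlier spots were set missing and spots of a probe averaged. The 41174 probes were named through the RefSeq accession in the files, matched to GRCm38.p6 gene symbols, and 27668 probes matched. Probes entered a test if 6 or more arrays of a group had them well above background. Genotypes were compared with limma 3.58.1 in R 4.3.3 over the 24 arrays of a tissue, without a block. Tissues and interactions were compared over 48 arrays with mouse as a block, since the source labels give both tissues of a mouse the same name. Over the 24 mice the 2 tissues deviated together (r from 0.109 to 0.688). Sample groups came from the labels, and the arrays of a group are separate mice. Their number limits the precision. Fits were tested on simulated data. Scaling, background correction, filters, scan day, slide and replicate as blocks, and the methods' t-test were tried as alternatives.

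The receptor genes, gene lists and tests were chosen with earlier results of these data known. Named probes were those called with and without scan day as a block, the 6 genes with the largest WT tissue difference in each direction, and up to 3 called probes with the smallest adjusted p a comparison. Gabra4 was added after its values were seen. One oligodendrocyte marker is not reported here. Relations with marker sums used 100000 permutations, two-sided.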

Additional observations from a re-analysis of the deposited data

Results flagged for a closer look

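Of 102 sets of 8 values checked for the 17 named probes in 6 groups, 5 held a sample that stood apart by Dixon's ratio, and chance alone gives about 1 set in 20. In WT hypothalamus, replicate 3 was the lowest for Gria1 (2.21 on the log2 scale, next value 2.79) and the highest for Grik1 (0.28, next value -0.47). The same WT mouse was the lowest in cortex for the Grin2b probe A_52_P248920 (-3.17, next value -2.66). WT replicate 7 was the highest in hypothalamus for the Grin2b probe A_51_P265765 (-1.71, next value -2.81). Per3 4/4 replicate 6, one of the dimmest arrays, was the lowest in hypothalamus for Gabbr2 (-1.85, next value -1.44).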

How the results depend on the processing

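On recomputing the counts of called receptor probes, 111 stayed within 1.5 times the main count or stayed at 0, and 21 moved. The comparisons between the KI lines and the interactions had main counts of 0, so part of the 111 were 0 both times. Of the called receptor probes, 2 changed sign under a setting, and neither was called there. They were Grik2 A_52_P655120 between the tissues of Per3 4/4 (0.31, and -0.03 with normexp) and Gabrg1 in Per3 5/5 hypothalamus (-0.39, and 0.05 on 1 scan day alone). Main counts against WT were 10 (Per3 5/5 cortex), 12 (Per3 4/4 cortex), 12 (Per3 5/5 hypothalamus) and 9 (Per3 4/4 hypothalamus). In that order they became 0, 4, 0 and 0 with scan day as a block, and 0, 0, 0 and 0 on 1 scan day alone. Median centring gave 4, 7 and 4 for Per3 5/5 cortex, Per3 5/5 hypothalamus and Per3 4/4 hypothalamus. Normexp gave 19 for Per3 4/4 cortex and 5 and 5 for the hypothalamus of Per3 5/5 and Per3 4/4. For Per3 5/5 hypothalamus the count was 7 without a filter on dim probes, 4 with the methods' t-test, 4 with slide as a random block and 6 without the mice with pituitary transcripts, and for Per3 4/4 hypothalamus it was 5 under each of the last 2. The latter setting, and leaving out the dimmest arrays (10, 10, 8 and 12), were chosen after seeing the data. The tissue count of Per3 4/4 went from 37 to 24 on scan day 2 alone. The cause was not tested. Of the named differences, recomputed, 261 kept their side of the threshold and 28 lost it.

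Replicate numbers did not consistently pair the mice of different genotypes. Mice with the same number had r from -0.42 to 0.52, and at most 3 of 8 correlated best with their own number. Replicates 1 to 4 of Per3 5/5 and Per3 4/4 did share a slide and scan day 1 by number. With the replicate number as a block the counts were 10, 13, 11 and 9 against WT and 0 and 0 between the KI lines. Without mouse as a block the tissue comparison called 36 probes in WT, 33 in Per3 5/5 and 34 in Per3 4/4, and the interactions called 0.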
